A study of Mus musculus with 2 samples.

Results

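The Ly6 genes described here are Ly6g, Ly6c1, Ly6c2, Ly6a, Ly6e, Ly6d and Ly6i of the mouse. They were taken by name, without regard to their values, and all 7 were found among the 27998 gene rows of each expression matrix. The matrices come from droplet single-cell RNA sequencing of spleen cells that were sorted as positive for CD11b and Gr1, and they hold counts of unique molecular identifiers (UMIs), each of which stands for 1 captured RNA molecule. The PyMT group is 1 library of cells pooled from 3 spleens of tumour-bearing mice whose strain label is PYMT, the abbreviation of the polyoma middle T antigen. The wild-type (WT) group is 1 library of cells pooled from 5 spleens of control FVB/n mice. The promoter of the transgene, the age of the mice and the stage of the tumours are not given in the sources used here. With 1 library of pooled animals in each group there is no replicate and no test between the groups. The 95% intervals given with the values cover counting error only, and each difference is one between these 2 libraries.

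Ly6 proteins are small, cysteine-rich proteins of the Ly6/uPAR fold, and most are held on the outer cell membrane by a glycosylphosphatidylinositol (GPI) anchor. Gr1 is not the product of 1 gene: the RB6-8C5 antibody used for the sort binds Ly6G, a protein of mouse neutrophils, and also Ly6C, which is abundant on classical monocytes and lower on nonclassical, patrolling monocytes. Among the other members, Ly6a encodes Sca-1, a marker of mouse haematopoietic stem cells that interferon induces, Ly6e encodes an interferon-induced protein that limits the entry of some viruses, and Ly6d encodes a marker of the B lineage. Because the gate selected cells by the proteins of Ly6g, Ly6c1 and Ly6c2, the shares of cells with these RNAs are set in part by the sort.

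The 7 genes lie in 1 cluster of 397.1 kb on chromosome 15 of the GRCm38 build in the GENCODE M21 annotation, with 5 genes on the minus strand and 2, Ly6e and Ly6g, on the plus strand. In chromosome order they are Ly6d (74762056 to 74763620), Ly6e (74955051 to 74959905), Ly6i (74979534 to 74983430), Ly6a (74994877 to 74998031), Ly6c1 (75044018 to 75048830), Ly6c2 (75108158 to 75111970) and Ly6g (75155240 to 75159126). The genes of the Gr1 antigens are neighbours at 1 end of the cluster, and the 250 bases before their RefSeq starts on GRCm38.p6 are shown because the 3 RNAs differ in the cells that hold them. RefSeq promoters were matched for these 3 of the 7 members. Each had 2 starts listed, and the start farthest 5′ was used. The Ly6g window ends at 75155260, past the GENCODE start of Ly6g at 75155240, so distances hold for the RefSeq start only. Each is given 5′ to 3′ on the strand of its gene, and capitals mark matches to GAGGAAGT, a motif of the PU.1/ETS type, and to TATAAA, the TATA box. Ly6c1 lies at chr15:75048838-75049087 on the minus strand, Ly6c2 at chr15:75111972-75112221 on the minus strand and Ly6g at chr15:75155011-75155260 on the plus strand.
Ly6c1: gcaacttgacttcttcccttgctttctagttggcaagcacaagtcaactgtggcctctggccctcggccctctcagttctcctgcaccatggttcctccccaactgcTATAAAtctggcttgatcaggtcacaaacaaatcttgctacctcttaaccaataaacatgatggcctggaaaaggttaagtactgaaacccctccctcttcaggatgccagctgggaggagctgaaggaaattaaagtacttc
Ly6c2: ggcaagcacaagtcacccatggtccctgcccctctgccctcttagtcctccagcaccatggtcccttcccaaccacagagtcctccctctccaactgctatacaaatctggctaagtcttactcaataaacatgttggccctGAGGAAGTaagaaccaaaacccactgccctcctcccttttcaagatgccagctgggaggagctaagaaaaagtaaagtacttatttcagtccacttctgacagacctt
Ly6g: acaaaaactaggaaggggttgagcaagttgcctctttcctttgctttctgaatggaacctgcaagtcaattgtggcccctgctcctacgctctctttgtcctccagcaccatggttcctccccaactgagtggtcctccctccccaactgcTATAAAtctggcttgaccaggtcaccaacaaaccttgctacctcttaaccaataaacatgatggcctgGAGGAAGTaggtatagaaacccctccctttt
GAGGAAGT was found 108 bases before the start of Ly6c2 and 31 bases before that of Ly6g, and 2.44% of 32851 windows of this length before RefSeq starts hold it on either strand. TATAAA was found 143 bases before the start of Ly6c1 and 99 bases before that of Ly6g, and 12.4% of the windows hold it. Of 2 further motifs searched on both strands, TTGCNNAA, a motif of the C/EBP type, was matched on the minus strand 232 bases before the start of Ly6g, against 9.56% of the windows. The core of the interferon-stimulated response element was matched in none of the 3 promoters and in 2.98% of the windows. A match is a description of letters in these windows and does not show that a factor binds there. In global alignments 57.8% of the columns were identical between Ly6c1 and Ly6c2, 58.5% between Ly6c1 and Ly6g, and 46.9% between Ly6c2 and Ly6g.

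The similarity of the transcripts limits what the counts can separate. Of the 50-base words in the last 300 bases of the annotated transcripts, where 3′ reads fall, 31.8% in Ly6c1 also occur in another gene (Ly6a, Ly6c2 or Ly6i), as do 23.3% of those in Ly6c2, 7.99% in Ly6a and 3.98% in Ly6i. The share was 0.398% in Ly6g, and no such word was found in Ly6e or Ly6d. Counts of Ly6c1 and Ly6c2 are therefore uncertain with respect to each other.

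The PyMT library held 9155 cells with 73435307 UMIs and a median of 7063 UMIs per cell, and the WT library held 5491 cells with 42542700 UMIs and a median of 5668. Cells were put in classes by genes outside the Ly6 family. Neutrophils had at least 10% of their UMIs in S100a8 and S100a9 and fewer than 2 UMIs of Cd79a and Cd79b, and there were 5488 of them in PyMT and 3980 in WT. Monocytes had less than 5% in S100a8 and S100a9 and at least 2 UMIs of Csf1r and Ccr2. Those with 0 UMIs of Ace, Treml4 and Adgre4 were called classical (786 cells in PyMT and 188 in WT) and those with at least 2 nonclassical (428 and 230). B cells had less than 5% and at least 3 UMIs of Cd79a and Cd79b (1081 and 304), and T cells at least 2 UMIs of Cd3d, Cd3e and Cd3g (146 and 60). Markers outside these rules followed the names: Camp, the cathelicidin gene of neutrophil granules, was at 31813 CPM (its UMIs per 1000000 UMIs of all genes in the class) in PyMT and 65954 in WT neutrophils and between 1068 and 1709.8 CPM in the other classes, and Ms4a1, which encodes CD20, was at 1685 and 1315 CPM in B cells and at most 9.03 CPM in the others. The monocyte classes followed theirs only in part, as described with the monocytes. The libraries share 72 cell barcodes.

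Each member had its own distribution over the classes, in both libraries. Ly6g was at 833 CPM (interval 825 to 841) in PyMT neutrophils and 1034 CPM (1023 to 1046) in WT neutrophils, and it lay between 33.4 and 46.8 CPM in the other PyMT classes and between 21.6 and 42.8 CPM in the other WT classes. Neutrophils held 91.7% of all Ly6g UMIs of the PyMT library and 88.7% of those of the WT library, most of the rest being in cells without a class. Among the 4 other classes of each library the Ly6g intervals of all neighbours in the order of levels overlapped. The ends of the PyMT order did not overlap. Nonclassical monocytes were at 46.8 CPM (39.8 to 54.7) and classical monocytes at 33.4 CPM (28.9 to 38.4). In nonclassical monocytes the log2 ratio of PyMT over WT for Ly6g was 0.52 (0.06 to 1.01). The granule genes Ngp, Lcn2 and Ltf had the patterns most like that of Ly6g, with Pearson correlations of 0.992, 0.991 and 0.989 of log2(CPM + 1) over the 10 sums of a library and a class. These points share 2 libraries, and most of the range lies between neutrophils and the rest.

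The classes with a low Ly6g level also held other neutrophil RNA. S100a8 and S100a9 made up 13339 to 15778 CPM in the PyMT and 8285 to 9084 CPM in the WT classes of monocytes and lymphocytes. Per 1000 UMIs of these 2 genes, B cells had 2.71 UMIs of Ly6g (interval 2.33 to 3.14) in PyMT and 4.71 (3.56 to 6.13) in WT, against 2.41 in PyMT and 3.33 in WT neutrophils, so that the WT B cells lay above their neutrophils. In classical monocytes the ratio was 2.32 (2.01 to 2.67) in PyMT and 3.94 (2.79 to 5.41) in WT, which in both libraries includes the ratio of their own neutrophils. In nonclassical monocytes it was 2.97 (2.53 to 3.48) in PyMT, above the PyMT neutrophils (2.38 to 2.43), and 3.67 (2.72 to 4.84) in WT, which includes the value of WT neutrophils. On the CPM scale Ly6g levels in classical monocytes were not above those in B cells, which should lack the gene. The source of the Ly6g counts in these classes was not tested.

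Ly6c2 was the member shared by the myeloid classes. Its level was 1915 CPM (1880 to 1951) in PyMT and 1485 CPM (1414 to 1559) in WT classical monocytes, 1459 and 1365 CPM in neutrophils, 986 and 752 CPM in nonclassical monocytes, and 100.3 and 144.5 CPM in B cells. In the class sums the order from classical monocytes through neutrophils and nonclassical monocytes to B cells was the same in both libraries. No neighbours in it overlapped among these 4 classes. By the median cell, classical monocytes lay above neutrophils in PyMT, at 1647 against 1267 CPM. In WT the median classical monocyte lay below the median neutrophil, at 952 against 1391 CPM. In T cells, where Ly6C marks some mouse subsets, Ly6c2 was at 282 CPM in PyMT and 700.5 CPM in WT. The WT T cell interval, 597 to 817 CPM, overlapped that of WT nonclassical monocytes.

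The remaining members were led by lymphocytes or monocytes. Ly6d was at 3423 CPM in PyMT and 2398 CPM in WT B cells and at no more than 52.3 CPM in any other class, and the lens gene Bfsp2, at 54.6 CPM in PyMT B cells and 42.1 CPM in WT B cells, had the most similar pattern (r = 0.989). Ly6a was at 374 and 373 CPM in B cells, at 105 and 47.6 CPM in T cells and between 4.01 and 12.6 CPM in the myeloid classes. Ly6e was the most widespread: it was at 2052 and 1820.2 CPM in B cells, between 1427 and 1568 CPM in both monocyte classes of both libraries, at 639 and 623 CPM in T cells, and lowest in neutrophils, at 181 CPM in PyMT and 148 CPM in WT. Ly6i was highest in nonclassical monocytes, at 80.9 CPM (71.6 to 91.1) in PyMT and 95.8 CPM (80.9 to 113) in WT. It was at most 27.0 CPM in neutrophils, classical monocytes, B cells and T cells. Ly6c1 was highest in T cells, at 43.3 CPM in PyMT and 25.9 CPM in WT, although the WT value rests on 6 UMIs and its interval overlaps that of WT neutrophils.

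**Figure D1:**
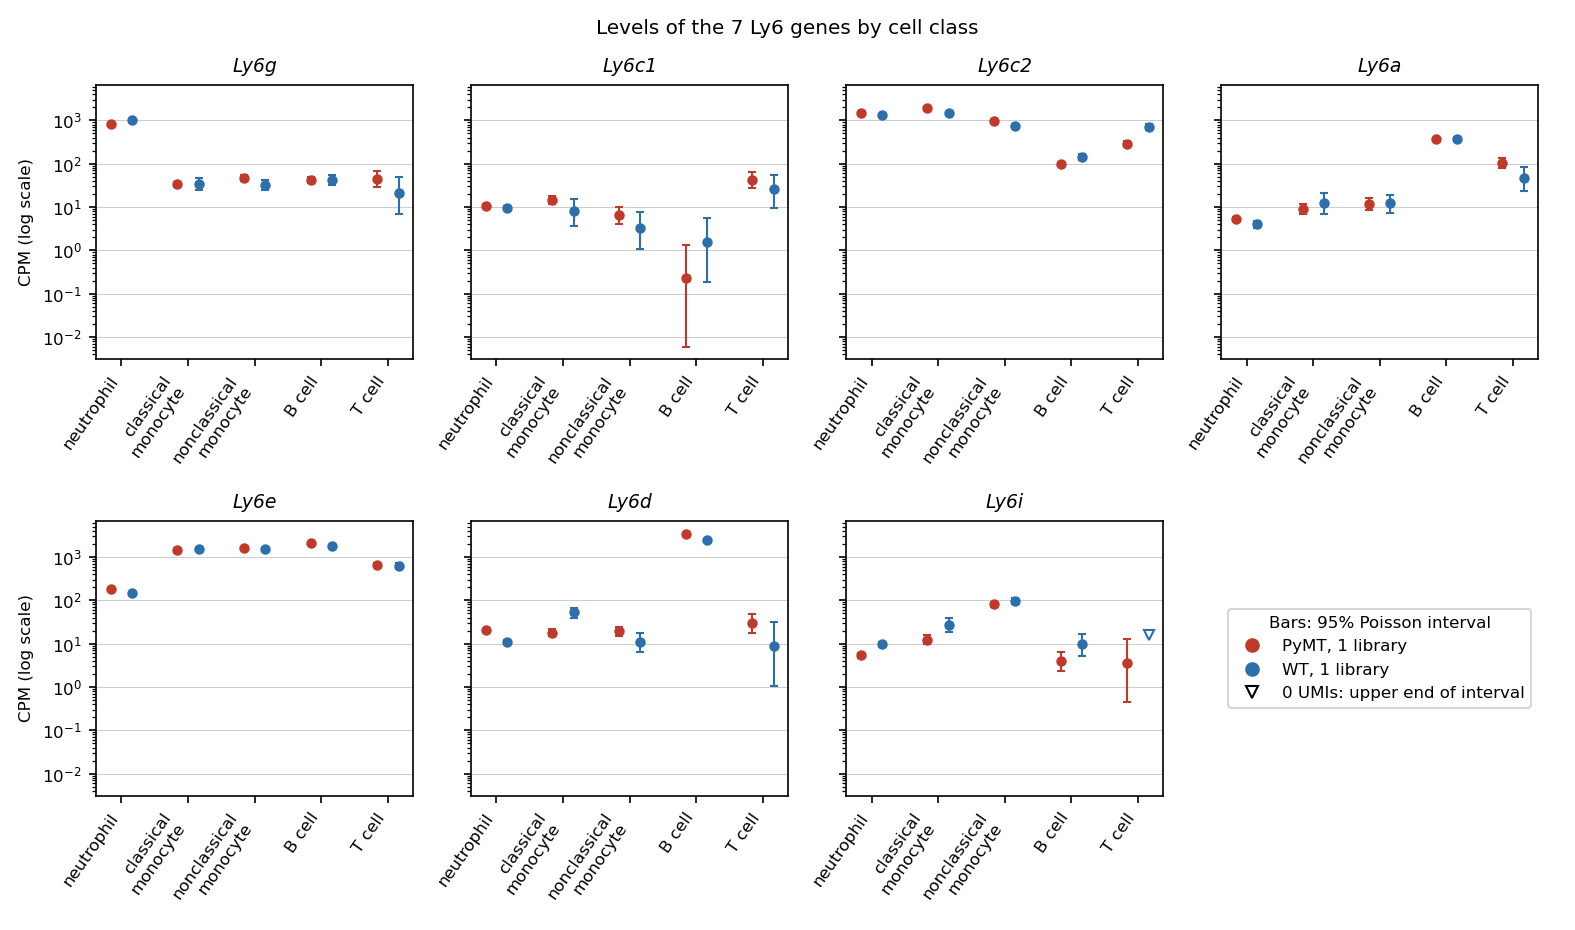
CPM of each Ly6 gene (log scale) in 5 cell classes, PyMT left of WT, with 95% Poisson intervals as bars; an open triangle marks the upper end of the interval of a sum at 0 UMIs. Ly6g stands out in neutrophils at 833 CPM in PyMT and 1034 CPM in WT, Ly6d and Ly6a in B cells, Ly6i in nonclassical monocytes, and Ly6c2 is above 700 CPM in all 3 myeloid classes.

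To ask how the Gr1 antigen genes differ between neutrophils of tumour-bearing and control spleens, their UMIs were compared as class sums. Ly6g was lower in PyMT neutrophils on the CPM scale, at 833 CPM against 1034 CPM in WT, a log2 ratio of -0.31 (-0.33 to -0.29), but scaled by the median of ratios the log2 ratio was 0.12 and by a trimmed mean of M-values 0.14, so its direction depends on the scaling. Ly6c2 was at 1459 CPM in PyMT and 1365 CPM in WT, a log2 ratio of 0.10 (0.08 to 0.11), which was 0.53 and 0.55 with the same scalings and -0.22 with equal weight per cell. Both intervals are narrow because they rest on 40260 to 70519 UMIs in PyMT and 31425 to 41474 in WT, but they hold no variation between mice. The median log2 ratio of all 9927 genes with at least 50 UMIs in the neutrophil sums was -0.47, and these scalings move every gene of the class by 0.44 and 0.45. Of the 7 members, Ly6d was at least 1.5-fold higher in PyMT and Ly6i at least 1.5-fold lower, while 49.7% of all genes passed that fold, 7.11% higher and 42.6% lower. With the median of ratios 16.1% of genes were higher and 19.0% lower, and with the trimmed mean 16.7% and 18.3%. The calls change with the scaling: with the median of ratios Ly6i misses the limit at -0.41, while Ly6a at 0.85 and Ly6e at 0.74 pass it on the higher side beside Ly6d at 1.36. The members called were 2 of 7 on the CPM scale, 3 of 7 with the median of ratios, against 35.1% of genes, and 4 of 7 with the trimmed mean, against 35.0%, so whether their share is below or above that of all genes depends on the scaling.

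**Figure D2:**
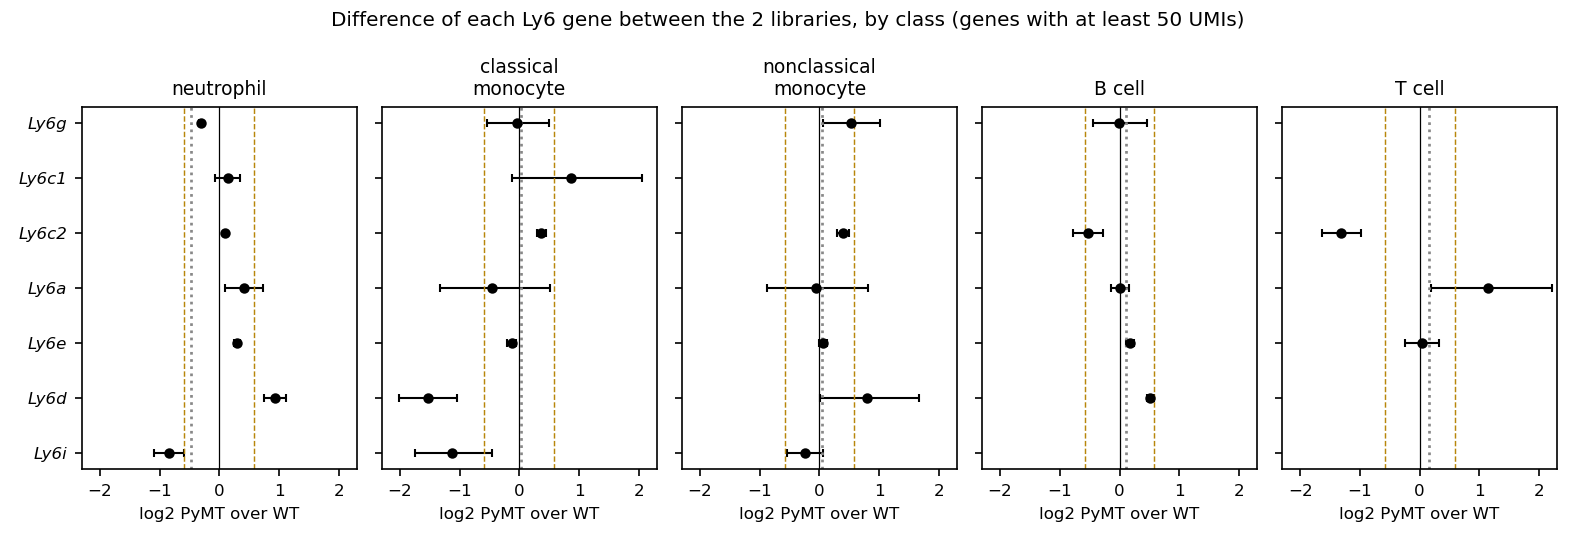
Log2 ratio of PyMT over WT for each Ly6 gene with at least 50 UMIs in a class, with exact 95% intervals that cover counting error; dashed lines mark 1.5-fold and the dotted line the median of all genes of that class. Ly6d lies at 0.93 in neutrophils and -1.53 in classical monocytes, and the dotted line of neutrophils lies at -0.47.

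Neutrophils of the libraries differed in their content of Camp, and the members followed this content in different ways. Camp took less than 1% of the UMIs in 2057 PyMT and 56 WT neutrophils, 1 to 5% in 2737 and 825, and at least 5% in 694 and 3099. These are ranges of a continuous value and not cell types: 14.01% of PyMT and 10.2% of WT neutrophils lie within 10% of the 5% limit. From the lowest to the highest range, Ly6g was at 945, 784 and 878 CPM in PyMT and at 879, 670 and 1132 CPM in WT. At 1 to 5% the log2 ratio of Ly6g was 0.23 (0.18 to 0.27), and at 5% or more it was -0.37 (-0.40 to -0.33), so on the CPM scale its direction differed between ranges. Ly6c2 was at 969, 1580 and 1612 CPM in PyMT and at 1718, 1337 and 1369 CPM in WT. Its log2 ratio was -0.83 (-0.97 to -0.68) in the lowest range, with 395 UMIs in WT, and 0.24 (0.21 to 0.27) in each of the other ranges. Depth moved with Camp as well, with medians of 4059, 10205 and 11580 UMIs per PyMT cell and 3339, 4830 and 5772 per WT cell, and its part in these values was not tested.

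The interferon-induced member Ly6e was lower in the neutrophils highest in Camp than in those lowest in it, in both libraries. In PyMT it was at 411 CPM in neutrophils low in Camp, 135 CPM in the middle range and 74.1 CPM in the highest. In WT it was at 396, 400.1 and 78.6 CPM. The intervals of the libraries overlapped in the lowest and highest ranges, whereas in the middle range PyMT cells were lower by a log2 ratio of -1.57 (-1.64 to -1.50). Taken over all neutrophils Ly6e was at 181 CPM in PyMT and 148 CPM in WT, a log2 ratio of 0.30 (0.25 to 0.35). That value hides 2 different distributions: 59.98% of PyMT and 25.8% of WT neutrophils had a UMI of Ly6e, while cells with 10 or more were 2.46% and 4.05%. With equal weight per cell the log2 ratio was 1.28. The neutrophil rule sets no limit on monocyte genes, and both monocyte classes had more Ly6e and Ly6i than neutrophils. The part of monocyte RNA in the neutrophil values of Ly6e and Ly6i was not tested.

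The other members were sparse in neutrophils. Ly6i was at 5.32 CPM in PyMT and 9.54 CPM in WT, a log2 ratio of -0.84 (-1.09 to -0.60), and its log2 ratios were -2.12 and -2.06 in the middle and highest ranges of Camp. It was higher in neutrophils low in Camp than in those high in it, by a log2 ratio of 2.74 (1.91 to 3.70) within PyMT and 2.20 (0.86 to 3.28) within WT, the WT value resting on 7 UMIs at the low end. Ly6a was at 5.36 CPM in PyMT and 4.01 CPM in WT, a log2 ratio of 0.42 (0.10 to 0.74) that turned to -0.88 in the middle range of Camp. Ly6c1 was at 10.7 and 9.71 CPM, and its intervals overlapped. Ly6d was at 20.9 CPM (19.6 to 22.2) in PyMT and 11.0 CPM (9.84 to 12.2) in WT, a log2 ratio of 0.93 (0.75 to 1.11). At 1 to 5% Camp the log2 ratio of Ly6d was 0.36 (0.06 to 0.68), under the 1.5-fold limit. B cell markers, summed over their list, moved in the same direction, at 12.9 CPM in PyMT and 9.61 CPM in WT neutrophils. Per marker UMI there were 1.62 Ly6d UMIs (1.46 to 1.79) in PyMT and 1.14 (0.97 to 1.34) in WT neutrophils. In B cells there were 0.816 and 0.660. The part of B cell RNA in the Ly6d value of neutrophils was not tested.

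**Figure D3:**
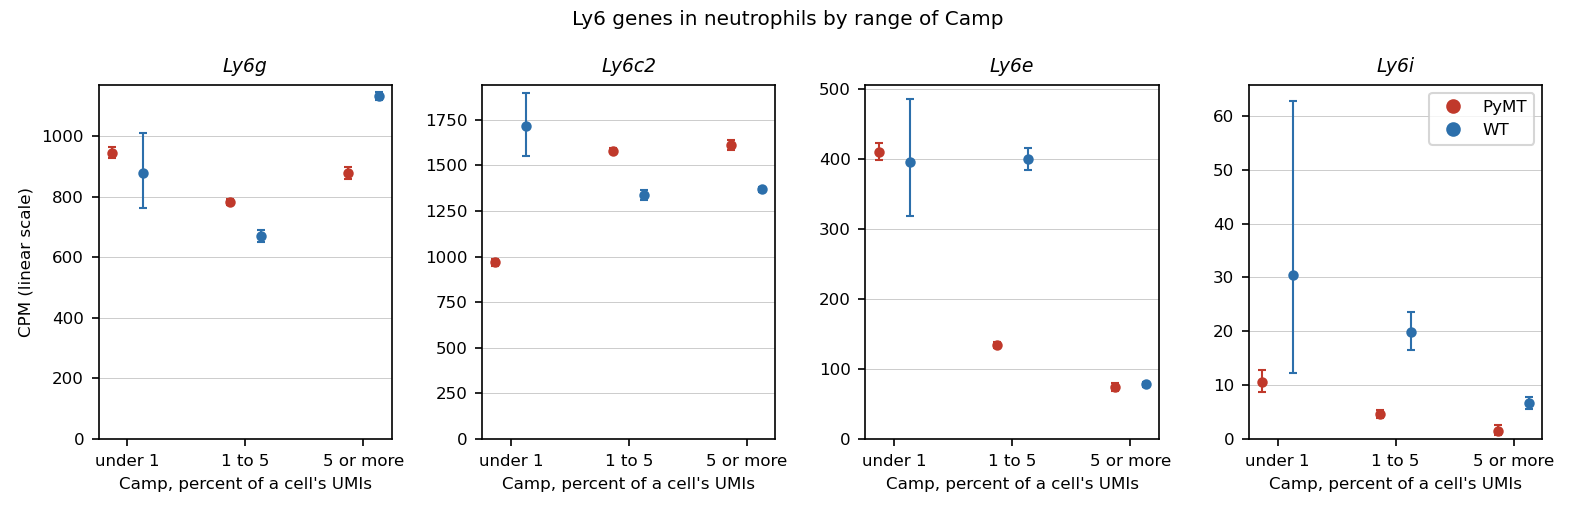
CPM of Ly6g, Ly6c2, Ly6e and Ly6i (linear scale) in neutrophils by the percent of a cell's UMIs in Camp, PyMT left of WT, with 95% Poisson intervals. At 1 to 5% Camp, Ly6e is at 135 CPM in PyMT and 400.1 CPM in WT, and under 1% Ly6c2 is at 969 CPM in PyMT and 1718 CPM in WT.

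Further divisions of neutrophils used Wfdc17, which encodes a small secreted protein of the whey acidic type, and genes of the cell cycle. Wfdc17 took at least 1% of the UMIs in 1626 PyMT neutrophils but in only 1 WT neutrophil, so this division was made within PyMT. In those cells Ly6c2 was at 749 CPM, against 1586 CPM in the other PyMT neutrophils, a log2 ratio of -1.08 (-1.12 to -1.04). Ly6e was at 435 CPM against 136 CPM, a log2 ratio of 1.68 (1.61 to 1.74), and Ly6a at 14.8 against 3.66 CPM. In the sums Ly6g differed little, at 897 CPM against 821 CPM. By cells its direction was the opposite. With every cell thinned at random to 1000 UMIs, Ly6g was found in 45.4% (42.9 to 47.8%) of the cells high in Wfdc17. In the other PyMT neutrophils it was found in 51.9% (50.3 to 53.5%). Neutrophils with at least 3 UMIs of Mki67, Top2a, Birc5 and Ccna2, genes of dividing cells, had less Ly6g than those with 0 in both libraries. The level was 358 CPM against 901 CPM in PyMT and 464 CPM against 1246 CPM in WT, log2 ratios of -1.33 and -1.43, while the log2 ratios of Ly6c2 were -0.21 and -0.55. The cells with at least 3 such UMIs were also the deeper ones, with medians of 16795 against 7736.5 UMIs in PyMT and 15094 against 5297 in WT.

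Joint detection of Ly6g and Ly6c2 in single cells followed the same divisions. At least 1 UMI of each was found in 83.3% of PyMT neutrophils (exact binomial interval 82.3 to 84.3%, median depth 8285 UMIs) and in 96.7% of WT neutrophils (96.1 to 97.2%, median depth 5630). Ly6g alone was found in 5.87% of PyMT and 0.201% of WT neutrophils, Ly6c2 alone in 6.65% and 3.04%, and neither in 4.17% and 0.0754%. The joint share was 13.4 percentage points lower in PyMT, and the intervals did not overlap. The median PyMT neutrophil was deeper than the median WT neutrophil, but PyMT neutrophils with under 1% Camp had a median of only 4059 UMIs. With every cell thinned to 1000 UMIs, a depth that all cells reached, the joint shares were 34.3% in PyMT and 48.4% in WT. At that depth the shares with Ly6g alone were close, at 15.7% (14.7 to 16.6%) in PyMT and 14.8% (13.7 to 15.9%) in WT, with overlapping intervals. Ly6c2 alone was found in 30.4% and 25.9%, and neither in 19.7% and 10.9%.

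As counted, the PyMT cells without both genes were mostly those low in Camp or high in Wfdc17. In neutrophils with under 1% Camp the joint share was 63.0% in PyMT, where 15.2% had Ly6g alone and 11.1% neither, and 92.9% (82.7 to 98.0%) in the 56 WT cells, and the thinned joint shares were 25.4% and 44.6%. In the middle range it was 95.4% in PyMT and 94.1% in WT, with overlapping intervals and thinned shares of 39.8% and 40.8%. At 5% or more it was 95.8% in PyMT and 97.5% in WT, also with overlapping intervals, but the thinned shares were 39.2% and 50.5%. In PyMT neutrophils with at least 1% Wfdc17 the joint share was 56.6% and the share with neither 13.2%. Those cells had a median of 3662 UMIs, against 10034.5 in the other PyMT neutrophils, which had both genes in 94.5%. Thinned to the same depth, the shares within PyMT were 20.3% and 40.2%. The thinned share of WT neutrophils with under 1% Wfdc17 was 48.4%.

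Outside neutrophils, Ly6c2 without Ly6g was found in 77.4% of PyMT and 74.5% of WT classical monocytes and in 66.8% and 63.9% of nonclassical monocytes. Thinned to 1000 UMIs, the shares were 75.1% and 57.4% in classical monocytes. In nonclassical monocytes they were 48.8% and 35.2%, where neither gene was then found in 48.6% of PyMT and 63.9% of WT cells. Both genes were found in 21.1% of PyMT and 17.0% of WT classical monocytes, and Ly6g at any level in 21.4% and 17.6%. B cells, at median depths of 3420 and 3762.5 UMIs against 7103 and 5384 in classical monocytes, had Ly6g in 14.9% and 16.8%. Thinned to 1000 UMIs, Ly6g was found in 3.05% of PyMT and 2.66% of WT classical monocytes. In B cells it was found in 3.42% and 2.63%, and the source of these UMIs was not tested. Neither gene was found in 1.27% of PyMT and 7.98% of WT classical monocytes, and in 5.61% and 17.8% of nonclassical monocytes. Over the whole library the joint share was 59.4% in PyMT and 79.9% in WT.

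**Figure D4:**
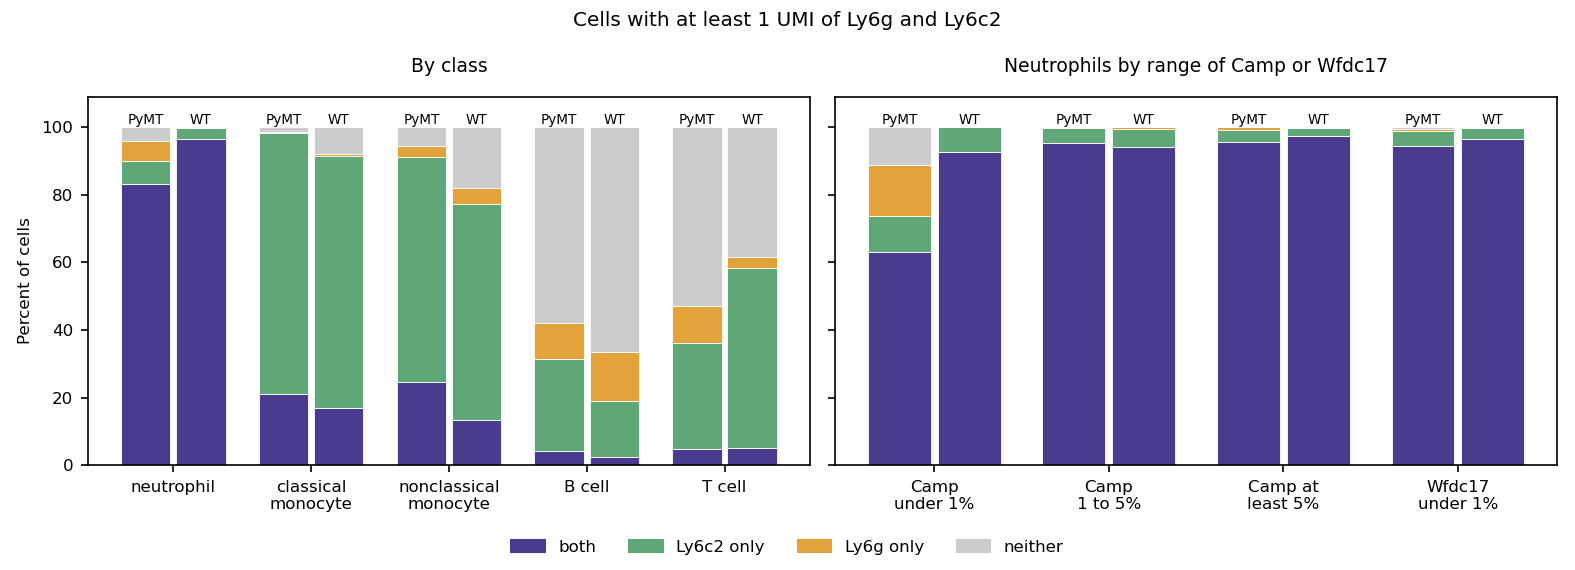
Percent of cells with at least 1 UMI of both Ly6g and Ly6c2, of 1 of them or of neither, by class (left) and in neutrophils by range of Camp or Wfdc17 (right), PyMT left of WT. The joint share is 83.3% in PyMT and 96.7% in WT neutrophils, and it is 95.4% and 94.1% in the middle range of Camp.

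Monocytes were compared next, since Ly6C separates the classical from the nonclassical kind. Ly6c2 in classical monocytes was at 1915 CPM in PyMT and 1485 CPM in WT, a log2 ratio of 0.37 (0.29 to 0.44), and the intervals of the levels did not overlap. In nonclassical monocytes it was at 986 and 752 CPM, with a log2 ratio of 0.39 (0.29 to 0.49). Within each library the classical class exceeded the nonclassical by nearly the same amount, a log2 ratio of 0.96 (0.90 to 1.01) in PyMT and 0.98 (0.87 to 1.09) in WT. The median classical monocyte had 1647 CPM in PyMT and 952 CPM in WT; 1.53% of PyMT and 8.51% of WT classical monocytes had 0 UMIs of Ly6c2.

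Neither monocyte class was of the same makeup in the libraries. The class rule did not use the 4 classical markers (F13a1, Fn1, Chil3 and Vcan). In classical monocytes they summed to 4205 CPM in PyMT and 1511 CPM in WT, and the nonclassical markers to 293 and 524 CPM. In nonclassical monocytes the classical markers summed to 2640 CPM in PyMT and 852 CPM in WT, and the nonclassical markers to 720 and 1135 CPM. Markers of plasmacytoid dendritic cells, 5 genes that include Irf8 and Bst2, differed in classical monocytes. They summed to 388 CPM in PyMT, where Klk1 was at 0, and 662 CPM in WT. Chil3, which encodes a chitinase-like protein, was at 2537 and 312 CPM in classical and 1920 and 330 CPM in nonclassical monocytes. F13a1, the gene of a coagulation factor subunit, was at 693 and 493 CPM in classical and 277 and 185 CPM in nonclassical monocytes. The part of these markers in the differences of Ly6c2 and Ly6d between the libraries was not tested. By the number of UMIs of Ace, Treml4 and Adgre4 in a cell, in bins chosen after values were seen, Ly6c2 declined in both libraries. For 0, 1, 2 to 3, 4 to 7 and 8 or more UMIs it was at 1915, 1425, 1179, 758 and 562 CPM in PyMT and at 1485, 1199, 805, 754 and 618 CPM in WT. The PyMT level was higher in the first 3 bins, with log2 ratios of 0.37, 0.25 and 0.55, and the intervals overlapped in the last 2, which hold 137 and 44 PyMT cells and 90 and 29 WT cells.

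Ly6i ran the opposite way. In the same bins it was at 12.4, 29.6, 46.4, 113.8 and 181 CPM in PyMT and at 27.0, 44.0, 61.0, 119 and 131 CPM in WT. Classical monocytes had less Ly6i than nonclassical ones by a log2 ratio of -2.70 (-3.10 to -2.33) in PyMT and -1.82 (-2.44 to -1.25) in WT. Ly6e was nearly level up to 7 UMIs, between 1427 and 1551 CPM in the PyMT bins and between 1458 and 1621 CPM in the WT bins. At 8 or more UMIs the libraries parted. Ly6e was then at 1787 CPM (1647 to 1936) in 44 PyMT cells and 1232 CPM (1104 to 1371) in 29 WT cells.

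**Figure D5:**
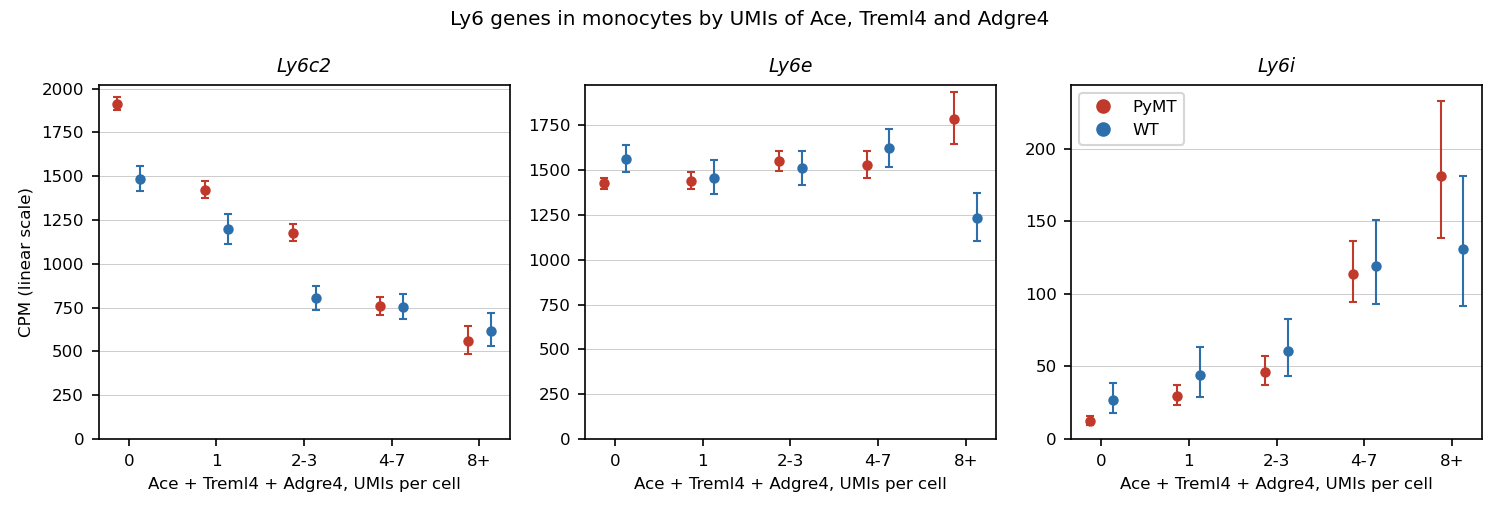
CPM of Ly6c2, Ly6e and Ly6i (linear scale) in monocytes by their UMIs of Ace, Treml4 and Adgre4, PyMT left of WT, with 95% Poisson intervals. Ly6c2 is at 1915 CPM in PyMT and 1485 CPM in WT at 0 UMIs and at 562 and 618 CPM at 8 or more, and Ly6i is higher in each later bin in both libraries.

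Among all members in classical monocytes, Ly6c1 was at least 1.5-fold higher in PyMT and Ly6d and Ly6i at least 1.5-fold lower, 3 of 7 members against 17.8% of all 7225 genes, 9.76% higher and 8.00% lower. None of the 3 rests on many molecules in WT. Ly6c1 had 87 UMIs in PyMT and 9 in WT, a log2 ratio of 0.87 (-0.12 to 2.04). Ly6i had 73 and 30 UMIs, at 12.4 and 27.0 CPM, with a log2 ratio of -1.12 (-1.75 to -0.46). Ly6d had 106 UMIs in 97 PyMT cells and 58 UMIs in 16 WT cells, at 18.0 and 52.3 CPM, with a log2 ratio of -1.53 (-2.01 to -1.05), but 3 cells held 77.6% of the WT UMIs. Ly6e was at 1427 CPM in PyMT and 1563 CPM in WT, a log2 ratio of -0.13 (-0.21 to -0.06), and the Ly6a intervals overlapped.

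In nonclassical monocytes 6 members reached 50 UMIs, and 1 of them, Ly6d, was at least 1.5-fold higher in PyMT, against 16.4% of 6373 genes, 9.40% higher and 6.97% lower. Its 65 UMIs in PyMT and 17 in WT gave 19.3 and 11.1 CPM, with a log2 ratio of 0.80 (0.01 to 1.66). The value turned to -0.21 when B cells needed 5 UMIs of Cd79a and Cd79b and to -0.32 when cells that meet the monocyte and B cell rules were kept in both classes. Ly6e was at 1568 CPM in PyMT and 1503 CPM in WT, and its log2 ratio of 0.06 (-0.01 to 0.13) spans 0. Ly6i, at 80.9 and 95.8 CPM, had a log2 ratio of -0.24 (-0.54 to 0.06).

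B cells, which the sort should mostly exclude, held 71.5% of the Ly6d UMIs in PyMT and 45.5% in WT, and 62.4% and 49.3% of the Ly6a UMIs. Ly6d was at 3423 CPM (3367 to 3479) in PyMT B cells and 2398 CPM (2315 to 2484) in WT B cells, a log2 ratio of 0.51 (0.46 to 0.57) under the 1.5-fold limit. It was found in 1075 of 1081 PyMT and 297 of 304 WT B cells. Erythroid markers, which should be absent from B cells, summed to 2454 CPM in the PyMT class and 8.41 CPM in the WT class, and their part in the values of this class was not tested. The B cell marker list also summed higher in PyMT, at 4192 CPM against 3636 CPM, and per marker UMI there were 0.816 Ly6d UMIs (0.799 to 0.835) in PyMT and 0.660 (0.630 to 0.690) in WT. Ly6a was at 374 CPM in PyMT and 373 CPM in WT, a log2 ratio of 0.00 (-0.14 to 0.15), and Ly6e at 2052 and 1820.2 CPM, with a log2 ratio of 0.17 (0.11 to 0.24). Of the 5 members with at least 50 UMIs 0 passed 1.5-fold, against 17.1% of 6893 genes, 12.9% higher and 4.19% lower. Ly6c2 came nearest to the limit on the lower side, at 100.3 CPM in PyMT and 144.5 CPM in WT, a log2 ratio of -0.53 (-0.78 to -0.27), but 3 cells held 40.2% of the 189 WT UMIs, and with equal weight per cell it was -0.15.

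In T cells 3 members reached 50 UMIs, and 2 of them passed 1.5-fold, against 22.3% of 1505 genes, 19.1% higher and 3.19% lower. Ly6c2 was at 282 CPM (239 to 330) in PyMT and 700.5 CPM (597 to 817) in WT, a log2 ratio of -1.31 (-1.64 to -0.99). It was found in 36.3% of 146 PyMT cells and 58.3% of 60 WT cells. Ly6a was at 105 CPM (79.5 to 135) in PyMT and 47.6 CPM (23.7 to 85.1) in WT, a log2 ratio of 1.14 (0.19 to 2.22), with 11 UMIs in WT. Ly6e was at 639 and 623 CPM. Markers of natural killer cells, which can be caught by the T cell rule, summed to 408 CPM in the PyMT class and 1055 CPM in the WT class, and their part in these values was not tested.

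Ly6c1 had few UMIs beside those of Ly6c2 in myeloid cells. Per 100 UMIs of Ly6c2 there were 0.735 UMIs of Ly6c1 (0.672 to 0.801) in PyMT and 0.711 (0.632 to 0.798) in WT neutrophils, 0.773 and 0.546 in classical monocytes, and 0.661 and 0.433 in nonclassical monocytes. The intervals overlapped, and the WT monocyte values rest on 9 and 5 UMIs of Ly6c1. T cells stood apart, at 15.4 (9.57 to 23.7) in PyMT and 3.70 (1.34 to 8.24) in WT. How many of the myeloid Ly6c1 counts are reads of Ly6c2 was not tested.

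Over the whole library, where fewer cells of a class and less RNA per cell cannot be told apart, 1 of 7 members was at least 1.5-fold different, against 24.2% of 11376 genes, 9.19% higher and 15.0% lower. It was Ly6d, at 276 CPM in PyMT and 162 CPM in WT, a log2 ratio of 0.77 (0.73 to 0.81), while B cells were 11.8% of PyMT and 5.54% of WT cells. Ly6g was at 598 and 833 CPM, with a log2 ratio of -0.48 (-0.50 to -0.46), while neutrophils were 59.98% and 72.5% of the cells. Ly6e was at 573 and 402 CPM, with a log2 ratio of 0.51 (0.49 to 0.54), Ly6a at 34.5 and 23.2 CPM, and Ly6c2 at 1334 and 1224 CPM.

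Of 32 further genes of the Ly6/uPAR fold, 28 were found in the files and 14 of these had 0 UMIs in both libraries. In neutrophils 4 reached 50 UMIs, with 1 at least 1.5-fold higher in PyMT and 1 lower and a median log2 ratio of 0.19, beside -0.47 for all genes, of which 49.7% passed that fold, 7.11% higher and 42.6% lower. Lypd6b, a relative of modulators of nicotinic acetylcholine receptors, was at 5.21 CPM in PyMT and 1.61 CPM in WT, a log2 ratio of 1.69 (1.25 to 2.17). Ly6g5b, which despite its name is a separate gene from Ly6g, was at 40.7 and 73.5 CPM, with a log2 ratio of -0.85 (-0.94 to -0.76). Plaur, the urokinase receptor gene, was at 283 and 258 CPM, and Ly6k at 34 and 18 UMIs. In B cells Lynx1, which encodes a modulator of nicotinic receptors, was at 68.1 CPM in PyMT and 40.5 CPM in WT, a log2 ratio of 0.75 (0.32 to 1.20), and Ly6k at 96.0 and 120 CPM. Over the whole library 6 genes reached 50 UMIs, among them Cd59a, a complement inhibitor gene, with a log2 ratio of 0.82.

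The genes that make the GPI anchor and attach it had medians near those of all genes. Of 28 listed, 27 were found and 22 reached 50 UMIs in neutrophils, where 0 passed 1.5-fold on the higher side in PyMT and 8 on the lower, with a median log2 ratio of -0.46 beside -0.47 for all genes. The shares of all genes were 7.11% higher and 42.6% lower. Pigp was lowest, at 7.10 CPM in PyMT and 21.5 CPM in WT, a log2 ratio of -1.60, and Pigl highest, at 0.43. In classical monocytes 1 of 17 was higher and 2 were lower, against 9.76% and 8.00% of all genes. In nonclassical monocytes 1 of 12 was higher and 1 lower, against 9.40% and 6.97%. In B cells 0 of 14 passed the fold in either direction, against 12.9% higher and 4.19% lower.

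The patterns most like the other members were named by the same measure over the same 10 sums. For Ly6c2 they were those of Atp8b4 (r = 0.945), Hpcal1 and Fam110a, for Ly6i those of Acp2 (r = 0.966), Tmem51 and Adrbk2, and for Ly6e those of Mrpl46 (r = 0.977), Morf4l1 and Smim20. For Ly6a they were those of Fam213a (r = 0.993), Bcl7a and Fchsd2, for Ly6d those of Bfsp2, Srpk3 and Tmem163, and for Ly6c1 those of Leprotl1 (r = 0.943), Nadk2 and Atp6v1d. The 10 points share 2 libraries and 5 classes of unequal depth, and 8800 genes were compared.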

How the data were processed

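Per the labels' protocols, spleen cells sorted on CD11b and Gr1 went into 10x Genomics Chromium 3′ libraries of version 2 chemistry, at 48488 reads per cell on average. Per the submitters' processing notes, Cell Ranger 2.1.0 and the mm10 build were used. The annotation and the read settings are not given in the sources. The deposited files hold raw UMI counts per gene and cell, from at least 2502 UMIs per cell in PyMT and 2752 in WT. The title and strain label of each library gave its group.

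A minimum of 200 genes and a maximum of 10% mitochondrial UMIs per cell left out 5 PyMT cells. The genes, classes and lists were chosen with earlier results of these data known. Cells that met the monocyte and B cell rules (71 in each library) stayed out of both classes, monocytes with 1 UMI of Ace, Treml4 and Adgre4 (312 and 112) out of both monocyte classes, and 811 PyMT and 532 WT cells had no class, 440 and 406 of them with neutrophil levels of S100a8 and S100a9 and at least 2 UMIs of Cd79a and Cd79b. No doublets were removed; as an alternative the cells most like simulated doublets were left out, 670 in PyMT and 241 in WT.

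The UMIs of each gene were added up over the cells of a class in a library and given as CPM, with exact Poisson intervals. The log2 ratios of PyMT over WT have exact conditional intervals, a sum at 0 being set to 3 counts in the sum, and shares have Clopper-Pearson intervals. With 1 library per group no p-value was made. Genes with at least 50 UMIs in a class were counted, and a 1.5-fold ratio was the limit. Similar genes are the 3 with the highest correlation among genes with at least 200 UMIs, leaving aside genes of the class rules, ribosomal, mitochondrial and unnamed genes and receptor segments. On simulated Poisson sums, the direction of a 1.5-fold change was recovered for 99% of 100 genes among 9927 in neutrophils. It was recovered for 94% among 7225 in classical monocytes and 98% among 6893 in B cells. Such a check says nothing of variation between mice. Both simulated sums came from a shared profile with equal numbers of genes raised and lowered. The check therefore does not cover a shift of most genes, such as the median log2 ratio of -0.47 in neutrophils. The tools were Python 3.11.15, numpy 2.4.6, scipy 1.17.1, pandas 2.3.3, scikit-learn 1.9.0 and Biopython 1.88. 1 gene of the classical monocyte marker list is not reported here, and the sum of that list leaves it out.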

Additional observations from a re-analysis of the deposited data

Results flagged for a closer look

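Ly6d differed in direction between classes. Its log2 ratio of PyMT over WT was 0.93 in neutrophils and 0.80 in nonclassical monocytes, and -1.53 in classical monocytes. Each value is of 1 library per group, so the difference between the classes was not tested. The classical value rests on 58 WT UMIs, of which 3 cells held 77.6%, and the nonclassical value on 17 WT UMIs.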

How the results depend on the processing

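No paired analysis was possible because each group is 1 library, and for the same reason no replicate could be left out. Of 86 values of the main comparisons under other settings, 60 kept their size within the limit set by counting error or 1.5 times the count, and 26 did not. The sign turned in 4 of the 86. Of 286 values of single members 235 stayed within their limit, and the sign turned in 28. Of these, 2 are of a member past 1.5-fold, Ly6d in nonclassical monocytes (-0.21 and -0.32). Among the others, Ly6e in neutrophils turned in 3 of 11 settings and reached -1.57 at 1 to 5% Camp, Ly6a in neutrophils in 3 of 11 and reached -0.88, and Ly6c2 in neutrophils was -0.22 with equal weight per cell. The log2 ratio of Ly6g in neutrophils, -0.31, was 0.12 with the median of ratios, 0.14 with a trimmed mean of M-values and 0.23 at 1 to 5% Camp, all of the opposite sign. It was -0.21 without the 50 most abundant genes, -0.47 with equal weight per cell, -0.27 without doublet-like cells, -0.39 with neutrophils at 20% S100a8 and S100a9 or more and -0.37 at 5% Camp or more. Ly6c2 in classical monocytes was 0.37 in the main comparison and 0.46 when monocytes needed 4 UMIs of Csf1r and Ccr2, and its alternatives ranged from 0.34 to 0.46. The joint share of Ly6g and Ly6c2 in neutrophils, as counted, was 13.4 points lower in PyMT, but 1.34 points higher at 1 to 5% Camp. The difference was -1.63 points at 5% or more and -2.15 points with Wfdc17 under 1%. Over all neutrophils it was -14.1 points after thinning. Thinned to 1000 UMIs, the shares at 1 to 5% Camp were 39.8% in PyMT and 40.8% in WT. They were 39.2% and 50.5% at 5% or more, and 40.2% and 48.4% with Wfdc17 under 1%.

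The count of members past 1.5-fold in neutrophils, 2, was 4 with the trimmed mean and 0 at 2-fold. In classical monocytes the count of 3 was 0 among genes with at least 200 UMIs. In nonclassical monocytes the count of 1 was 2 among genes with at least 10 UMIs. It was 0 among genes with at least 200 UMIs, at 2-fold, with B cells at 5 UMIs of Cd79a and Cd79b, and with cells of both rules kept. In B cells the count of 0 was 2 with cells of both rules kept and 1 with the trimmed mean, the stricter cell filter (500 genes, 5% mitochondrial UMIs), S100a8 and S100a9 under 2%, 4 UMIs of Csf1r and Ccr2, or genes with at least 10 UMIs. Depth limits Ly6c1, Ly6i and Ly6a in monocytes and lymphocytes, where sums of 0 to 30 WT UMIs were common. Beyond the settings' own construction, the cause of these moves was not tested.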

Other observations

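Natural killer cells, which had at least 2 UMIs of Ncr1, Klrb1c and Klre1 and none of the CD3 genes, were too few to compare, with 11 cells in each library. Ly6c2 had 14 UMIs in 5 of the PyMT cells and 69 UMIs in 9 of the WT cells, and Ly6a had 0 UMIs in both. Of the Ly6d UMIs of the WT library 42.1% lay in cells without a class, against 19.1% in PyMT.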
